A study of Mus musculus with 39 samples.

Results

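The HER receptor genes Erbb2, Egfr, Erbb3 and Erbb4 were followed across PB2 mouse breast tumors that carried either p95HER2 or full-length HER2 (FL-HER2). They were found by symbol, and all 4 were present among the 20520 genes measured. The design asks how the truncated and the full-length receptor differ in tumors at an early and a late time. The tumors fell into 4 groups: p95HER2 tumors 22 days after implantation (10 libraries), FL-HER2 tumors at day 22 (9 libraries), p95HER2 tumors at day 10 (10 libraries) and FL-HER2 tumors at day 10 (10 libraries). All of them are PB2 tumors with 1 of the 2 HER2 constructs, and no PB2 tumor without a construct is among the libraries. The sources used here do not give the mouse strain, the age and sex of the hosts, the promoter of each construct or the species of its coding sequence. Nor do they say that each library is 1 tumor of 1 animal, so p-values speak only for the spread among these libraries, part of which may be technical.

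HER receptors are receptor tyrosine kinases of epithelial cells that signal as pairs through the PI3K and MAPK pathways. EGFR binds ligands such as EGF, TGF-alpha and amphiregulin, HER3 and HER4 bind neuregulins, and HER2, which has no known ligand, is the preferred partner of the others. p95HER2 is a form of HER2 that lacks most of the extracellular domain, keeps the kinase domain and is found in part of HER2-positive breast cancers. In the mammary gland EGFR and HER2 act in ductal growth, HER3 is the main partner through which HER2 reaches PI3K, and HER4 is known for its part in lactation.

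The Erbb2 gene lies on chromosome 11 of GRCm38, the assembly behind mm10, at 98412470 to 98437716 on the plus strand, and Egfr lies on the same chromosome at 16752203 to 16918158 on the plus strand. Erbb3 lies on chromosome 10 at 128567523 to 128589652 on the minus strand and Erbb4 on chromosome 1 at 68032186 to 69108059 on the minus strand. The union of their annotated exons spans 5210 bases in Erbb2, 11326 in Egfr, 6016 in Erbb3 and 12355 in Erbb4, so a read count is compared between receptors only after division by length. The coding stretch around the catalytic loop of the kinase domain is shown because it is a conserved stretch of the family and lets a reader see how far the 4 genes can be told apart by sequence. The capitals mark the codon at the place of the catalytic aspartate, read from the GENCODE M21 transcripts, and it codes for aspartate in all 4 mouse transcripts.
Erbb2: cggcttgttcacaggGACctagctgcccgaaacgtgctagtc
Egfr: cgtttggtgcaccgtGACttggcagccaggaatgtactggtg
Erbb3: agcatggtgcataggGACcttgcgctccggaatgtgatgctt
Erbb4: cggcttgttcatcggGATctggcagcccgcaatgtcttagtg

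Between any 2 of the 4 coding sequences, 60.9% to 64.7% of the aligned bases were identical, and the longest exact run that 2 of the transcripts shared was 14 to 22 bases. A read longer than that run cannot match 2 of these transcripts exactly. The same does not hold for the construct: reads of a transgene that align to the mouse gene are counted in it. Erbb2 values thus sum the gene of the tumor cells, that of the host cells and such reads of the construct, if any. A truncated construct also gives fewer bases to count per molecule than a full-length one, and its part in the values was not tested.

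The libraries held 21772259 to 44427621 reads (mean 34009091 ± 3708309, SD, n = 39). Levels are given in CPM, the reads of a gene per 1000000 reads of its library. Changes are differences of log2 values, where the log2 value of a gene is the log2 of its normalized count plus 1, with the standard error (SE) of a linear model over all 39 libraries. Whether groups overlap was counted on these log2 values unless CPM is named, and CPM can give other counts. Of the 20520 genes, 13650 had at least 1 CPM in at least 9 libraries and were tested, and a gene was called at an adjusted p (limma, two-sided, Benjamini-Hochberg over the 13650 genes) under 0.05. All 4 receptors passed this filter, Erbb2, Egfr and Erbb3 in 39 of 39 libraries and Erbb4 in 28. The breast label was matched by luminal markers such as Krt8, Epcam and Cdh1, none of which was at 0, with a summed level of 2296 to 3450 CPM over 15 genes in the 39 libraries. Skeletal muscle markers took 0.00161% to 3.87% of the reads, most in FL-HER2 tumors at day 10 (median 1.74%), and 11 libraries stood apart by high skin markers, 3 of p95HER2 and 1 of FL-HER2 at day 22 and 5 of p95HER2 and 2 of FL-HER2 at day 10. Because the samples are bulk tumors, fewer cells of a type and less RNA per cell cannot be told apart.

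Erbb2 was the leading HER receptor in every library and Erbb4 the lowest. Per kilobase of exon, Erbb2 averaged 35.5 ± 5.05 CPM in p95HER2 tumors and 21.6 ± 4.84 CPM in FL-HER2 tumors at day 22, and 66.4 ± 12.0 CPM in p95HER2 tumors and 35.4 ± 5.65 CPM in FL-HER2 tumors at day 10 (SD, n = 10, 9, 10 and 10). This was 2.55 to 11.6 times the level of Egfr in the same library. Erbb4 stayed between 0.0214 and 0.177 CPM per kilobase over the 39 libraries, which rests on 9 to 87 reads, so its values carry far more counting error than those of Erbb2 (2352 to 17473 reads), Egfr (1561 to 4106) or Erbb3 (1156 to 3219).

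**Figure D1:**
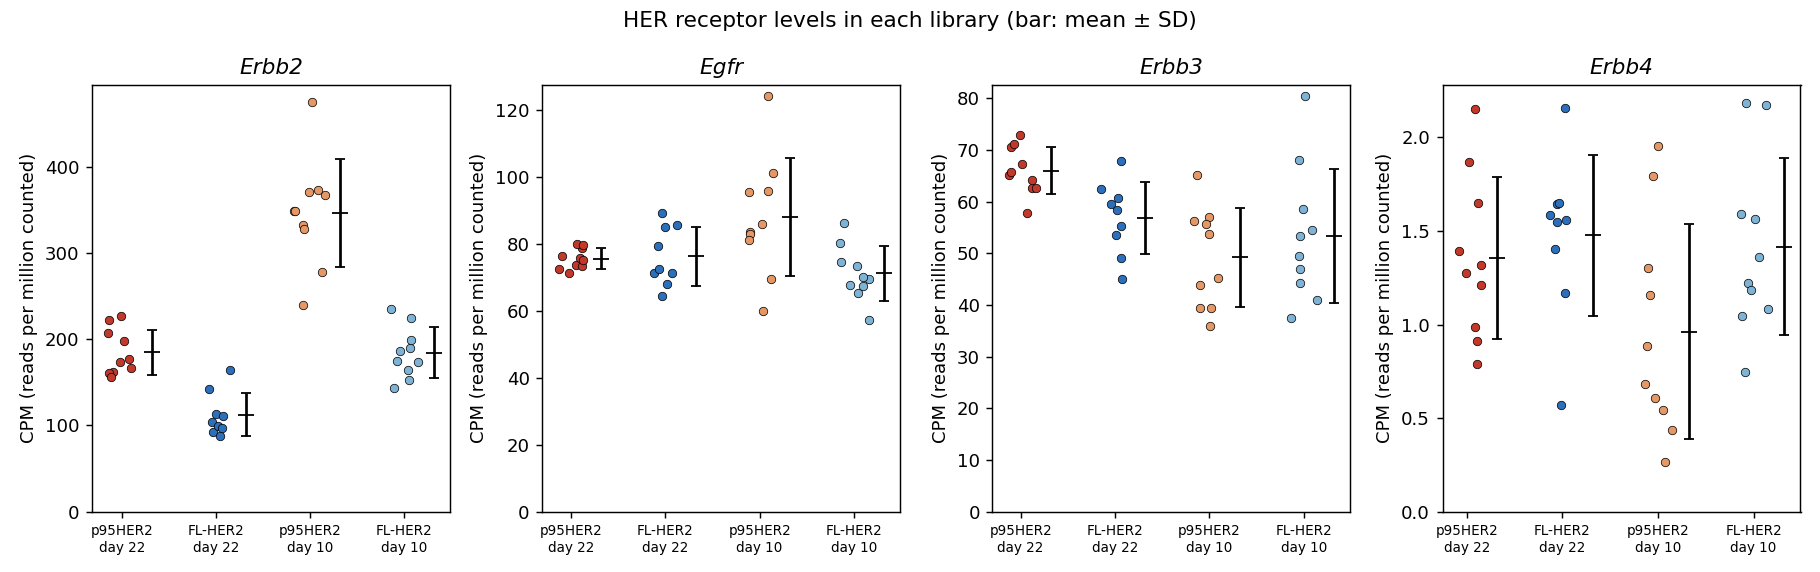
Levels of the 4 receptors in CPM on the y axis (a linear axis from 0, on its own scale for each gene) by group on the x axis, with 1 point per library and the mean ± SD as the bar beside it. Erbb2 reached 475 CPM in 1 p95HER2 library of day 10 and 87.9 CPM at the lowest in FL-HER2 tumors of day 22, while Erbb4 did not pass 2.18 CPM in any library.

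Egfr and Erbb3 were closer to each other. Per kilobase, Erbb3 was above Egfr in 10 of 10 p95HER2 libraries and 8 of 9 FL-HER2 libraries at day 22, and in 7 of 10 p95HER2 libraries and 9 of 10 FL-HER2 libraries at day 10. With the length of the longest transcript in place of the exon union, the count in p95HER2 tumors at day 10 was 5 of 10, so there the order of the pair does not differ beyond its spread. As a share of the summed CPM per kilobase of the 4 receptors, Erbb2 made up 66.4% ± 2.85 in p95HER2 tumors and 56.6% ± 3.55 in FL-HER2 tumors at day 22, and 80.4% ± 2.57 in p95HER2 tumors and 69.7% ± 4.05 in FL-HER2 tumors at day 10 (SD).

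With exon-union lengths, Erbb3 took the next share in the means of the 4 groups, while with the longest transcript the means in p95HER2 tumors at day 10 were 10.1% for Egfr and 9.60% for Erbb3. By exon union Erbb3 made up 20.7% ± 1.97 in p95HER2 tumors and 25.2% ± 2.97 in FL-HER2 tumors at day 22, against 10.0% ± 1.68 in p95HER2 tumors and 17.5% ± 3.36 in FL-HER2 tumors at day 10. The Egfr share was 12.6% ± 1.11 in p95HER2 and 18.0% ± 2.16 in FL-HER2 tumors at day 22, and 9.51% ± 1.80 in p95HER2 and 12.5% ± 1.18 in FL-HER2 tumors at day 10. The Erbb4 share lay between 0.0368% and 0.391% in all libraries. These shares depend on each other, since a higher Erbb2 lowers the rest.

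**Figure D2:**
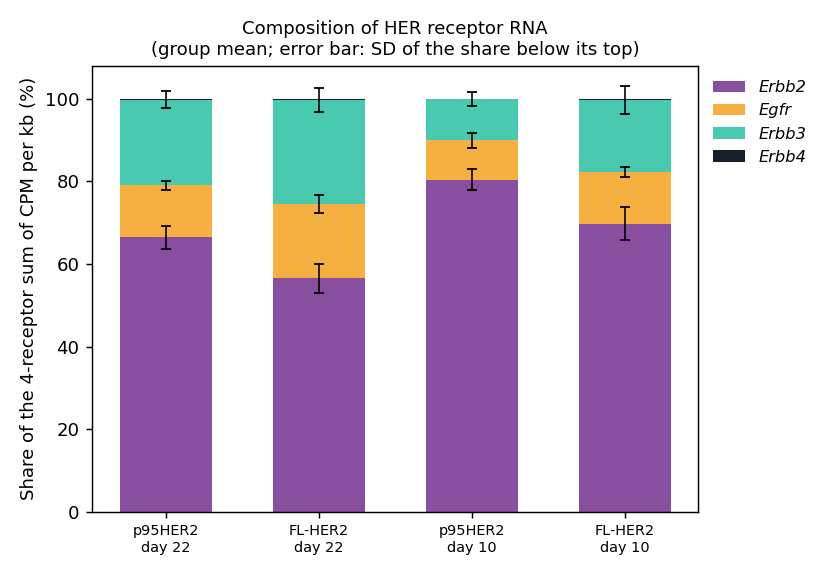
Mean share of each receptor in the summed CPM per kilobase of the 4 HER receptors, in percent on the y axis, by group on the x axis. Each error bar is the SD of the share whose top it marks. The Erbb2 share is 80.4% in p95HER2 tumors at day 10 and 56.6% in FL-HER2 tumors at day 22.

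Set among 19 other growth factor receptor tyrosine kinases, Erbb2 per kilobase ranked 3 of 23 in p95HER2 tumors and 5 of 23 in FL-HER2 tumors at day 22, and 1 of 23 in p95HER2 tumors and 3 of 23 in FL-HER2 tumors at day 10. The discoidin receptor Ddr1 and the FGF receptor Fgfr1 were above it at day 22, with means of 64.0 and 65.2 CPM per kilobase in p95HER2 tumors and 55.2 and 52.8 in FL-HER2 tumors. Erbb3 ranked 7 to 10, Egfr 10 or 11 and Erbb4 21 or 22 over the 4 groups. Among all 20520 genes by mean CPM, Erbb2 ranked 1036 in p95HER2 and 2086 in FL-HER2 tumors at day 22, and 423 in p95HER2 and 975 in FL-HER2 tumors at day 10.

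At day 22, Erbb2 was the one receptor of the 4 called between constructs. It had 156 to 227 CPM (median 175) in p95HER2 tumors, against 87.9 to 165 CPM (median 105) in FL-HER2 tumors. The groups overlapped: 8 of 10 p95HER2 libraries lay above every FL-HER2 library and 8 of 9 FL-HER2 libraries below every p95HER2 library. The mean was 185 ± 26.3 CPM in p95HER2 and 113 ± 25.2 CPM in FL-HER2 tumors (SD), a log2 change of 0.73 ± 0.11 (SE, limma adjusted p = 1.41e-05), or 1.66-fold. Of all genes tested, 4.52% were called in this comparison, 2.98% higher and 1.54% lower in p95HER2 tumors.

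The other receptors were not called at day 22. Egfr had 71.3 to 79.9 CPM (median 75.5) in p95HER2 tumors and 64.5 to 89.2 CPM (median 72.5) in FL-HER2 tumors, a log2 change of -0.01 ± 0.08 (limma adjusted p = 0.970) whose interval of 2 SE runs from -0.17 to 0.15. Erbb3 had 57.7 to 72.9 CPM (median 65.4) in p95HER2 tumors and 45.0 to 67.8 CPM (median 58.3) in FL-HER2 tumors. With 5 of 10 p95HER2 libraries above every FL-HER2 library, it gave a log2 change of 0.22 ± 0.10 (limma adjusted p = 0.215). Erbb4 had 0.792 to 2.15 CPM (median 1.3) in p95HER2 tumors and 0.571 to 2.16 CPM (median 1.56) in FL-HER2 tumors, a log2 change of -0.12 ± 0.27 (limma adjusted p = 0.875) with an interval of 2 SE from -0.65 to 0.42. The groups overlapped for all 3 genes. The p95HER2 libraries were close together in Egfr, with a coefficient of variation of 4.01%, against 11.5% in FL-HER2 tumors.

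Basal epithelial markers moved with Erbb2 at day 22. All 12 listed markers, among them Krt5, Krt14 and Trp63, were in the table and none was at 0 throughout a group. Their summed level was 1688 to 2374 CPM in p95HER2 and 1335 to 1957 CPM in FL-HER2 tumors. Of 11 tested members, 6 were higher and 0 lower, beside 2.98% and 1.54% of all genes tested. The basal score, the mean log2 value of these members, ran from 9.18 to 10.18 in p95HER2 and from 8.45 to 9.15 in FL-HER2 tumors, with no overlap. With this score as a covariate, an alternative chosen after seeing the data, the Erbb2 difference was 0.19 ± 0.18 (limma adjusted p = 0.998), and since score and construct do not overlap here, their parts cannot be told apart. Leukocyte markers, among them Ptprc and Csf1r, differed as well: 3 of 8 tested members were lower in p95HER2 tumors and 0 higher, with none of the 10 listed at 0 throughout a group and summed levels of 274 to 742 CPM in p95HER2 and 365 to 594 CPM in FL-HER2 tumors. Their part in the Erbb2 difference was not tested.

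At day 10, 3 of the 4 receptors were called between constructs, in a comparison where 41.3% of all genes tested were called (15.2% higher and 26.1% lower in p95HER2 tumors). Erbb2 and Egfr were higher in p95HER2 tumors and Erbb4, the HER4 gene, was lower. Erbb2 had 240 to 475 CPM (median 348) in p95HER2 tumors, against 144 to 235 CPM (median 180) in FL-HER2 tumors. The ranges do not overlap in CPM, and on the log2 scale 9 of 10 p95HER2 libraries lay above every FL-HER2 library. The means were 346 ± 62.3 CPM in p95HER2 and 184 ± 29.4 CPM in FL-HER2 tumors (SD, n = 10 each), a log2 change of 0.85 ± 0.10 (limma adjusted p = 6.64e-08), or 1.80-fold.

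Skeletal muscle markers differed at this time, with 20 of 20 lower in p95HER2 tumors, beside 26.1% of all genes tested. None of these markers was at 0 throughout a group, and their summed levels were 40.9 to 10681 CPM in p95HER2 and 491 to 38707 CPM in FL-HER2 tumors. With a muscle score, the mean log2 value of these markers, added to the model, Erbb2 differed by 0.69 (limma adjusted p = 3.22e-05), and with the 4 p95HER2 and 3 FL-HER2 libraries of limited muscle content, by 0.77 (limma adjusted p = 0.0118). Without the 11 strongly skin-marked libraries it was 0.69 (limma adjusted p = 0.000255). The basal score ran from 10.61 to 11.05 in p95HER2 and from 9.96 to 10.49 in FL-HER2 tumors, with no overlap. With it as a covariate the Erbb2 difference was 0.51 (limma adjusted p = 0.00806), but the parts of score and construct cannot be told apart at this day either. Leukocyte markers were lower in p95HER2 tumors in 6 of 8 tested members and higher in 0, with none of the 10 listed at 0 throughout a group and summed levels of 201 to 419 CPM in p95HER2 and 376 to 695 CPM in FL-HER2 tumors, and their part in the receptor differences of this day was not tested.

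Egfr at day 10 had 60.2 to 124 CPM (median 84.7) in p95HER2 tumors and 57.4 to 86.4 CPM (median 69.9) in FL-HER2 tumors. The groups overlapped, with 5 of 10 p95HER2 libraries above every FL-HER2 library. The means were 88.0 ± 17.7 CPM in p95HER2 and 71.2 ± 8.09 CPM in FL-HER2 tumors (SD), a log2 change of 0.23 ± 0.08 (limma adjusted p = 0.0182). This call rests in part on p95HER2 replicate 5, the highest library, without which it was 0.17 (limma adjusted p = 0.0503). Of 14 fibroblast markers, 10 were lower in p95HER2 tumors at this time, beside 26.1% of all genes tested. Their summed levels were 5329 to 12284 CPM in p95HER2 and 9229 to 27281 CPM in FL-HER2 tumors. With the fibroblast score as a covariate the Egfr difference was 0.00366 (limma adjusted p = 0.991). This score ran from 10.65 to 11.82 in p95HER2 and from 11.61 to 12.84 in FL-HER2 tumors, so the parts of score and construct can hardly be told apart. The call also ended with the muscle, basal or Schwann cell score as a covariate, with a term for the length of the sample number (5 digits in 8 FL-HER2 libraries of day 10), in the muscle-limited libraries, without skin-high libraries, and when only these groups were fitted.

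Erbb3 at day 10 had 36.0 to 65.1 CPM (median 49.5) in p95HER2 tumors and 37.5 to 80.3 CPM (median 51.4) in FL-HER2 tumors, a log2 change of -0.17 ± 0.09 (limma adjusted p = 0.158). The groups overlapped, with 1 p95HER2 library below every FL-HER2 library and 2 FL-HER2 libraries above every p95HER2 library. With the muscle score as a covariate the difference was -0.37 (limma adjusted p = 0.00328), and in the muscle-limited libraries -0.50 (limma adjusted p = 0.00957). The highest FL-HER2 libraries, replicates 10 and 7 with 80.3 and 68.1 CPM, are the strongly skin-marked ones of that group. Replicate 10 also had the lowest share of muscle reads of the group (0.0491%, against a median of 1.74%). Which of these goes with its Erbb3 level was not tested.

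Erbb4 at day 10 had 0.264 to 1.96 CPM (median 0.783) in p95HER2 tumors and 0.747 to 2.18 CPM (median 1.29) in FL-HER2 tumors. Of the p95HER2 libraries, 5 of 10 lay below every FL-HER2 library, and 4 of 10 p95HER2 against 9 of 10 FL-HER2 libraries reached 1 CPM. The log2 change was -0.76 ± 0.26 (limma adjusted p = 0.0192). It rests on few reads, a median of 26 in p95HER2 and 44.5 in FL-HER2 libraries, and the call ended under 11 of 20 alternatives, among them quantile normalization (-0.32, limma adjusted p = 0.376).

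**Figure D3:**
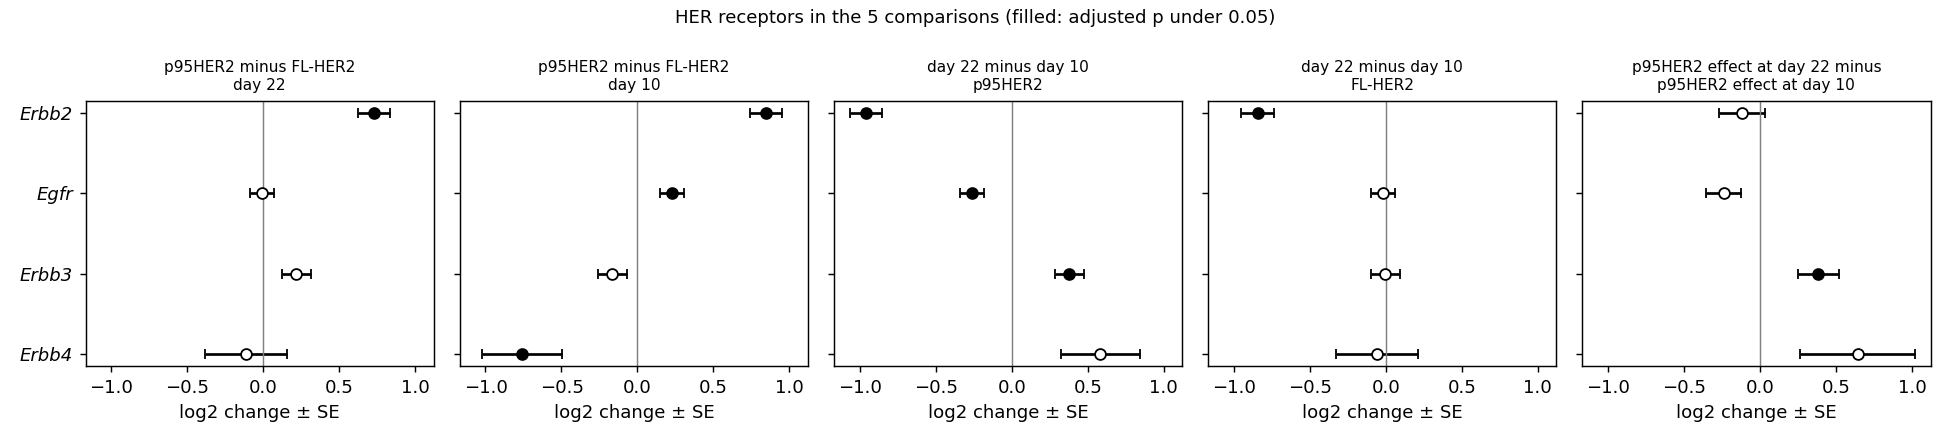
Log2 change on the x axis (points, with bars of ± 1 SE) of each receptor on the y axis in the 5 comparisons, 1 panel each, with filled points where the limma adjusted p is under 0.05. Erbb2 lies at 0.73 and 0.85 between constructs and at -0.96 and -0.84 between days, and Erbb3 at 0.38 with time in p95HER2 tumors.

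In p95HER2 tumors, Erbb2 and Egfr were lower at day 22 than at day 10 and Erbb3 was higher. Of all genes tested, 35.2% were called with time in these tumors, 16.6% higher and 18.6% lower at day 22. The Erbb2 ranges given above, 156 to 227 CPM at day 22 and 240 to 475 CPM at day 10, do not overlap. The log2 change was -0.96 ± 0.10 (limma adjusted p = 1.59e-09), which leaves 0.514 of the level of day 10.

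Egfr averaged 75.7 ± 3.03 CPM at day 22 and 88.0 ± 17.7 CPM at day 10 in p95HER2 tumors (SD, n = 10 each), with 8 of 10 libraries of day 10 above every library of day 22. Its log2 change of -0.26 ± 0.08 (limma adjusted p = 0.00914) was no longer called on log2(CPM + 1) values (-0.19, limma adjusted p = 0.0596), with voom (-0.19, limma adjusted p = 0.0591), in the muscle-limited libraries, without skin-high libraries or with the basal score. The coefficient of variation was 4.01% at day 22 and 20.1% at day 10.

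Erbb3, the neuregulin receptor that couples HER2 to PI3K, averaged 66.0 ± 4.61 CPM at day 22 and 49.2 ± 9.65 CPM at day 10 in p95HER2 tumors. Of the day 10 libraries, 8 of 10 lay on the log2 scale below every library of day 22. The log2 change was 0.38 ± 0.09 (limma adjusted p = 0.00138), or 1.3-fold. It was 0.57 with the basal score as a covariate (limma adjusted p = 0.156) and 0.31 with the fibroblast score (limma adjusted p = 0.0806), and stayed called under the other 19 alternatives.

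Erbb4 in p95HER2 tumors averaged 1.36 ± 0.431 CPM at day 22 and 0.963 ± 0.576 CPM at day 10, a log2 change of 0.58 ± 0.26 (limma adjusted p = 0.0810). The day 10 libraries were spread widely, with a coefficient of variation of 59.9%, against 31.8% at day 22. Without replicate 4 or replicate 7 of day 10, the libraries of the highest Erbb4, the adjusted p (limma) was 0.0265 to 0.0322.

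In FL-HER2 tumors, Erbb2 was the one receptor called with time, in a comparison where 51.4% of all genes tested were called, 20.7% higher and 30.6% lower at day 22. Its ranges of 87.9 to 165 CPM at day 22 and 144 to 235 CPM at day 10 overlap in CPM, and on the normalized log2 scale the groups do not overlap (11.27 to 12.11 at day 22, 12.12 to 12.85 at day 10). The log2 change was -0.84 ± 0.11 (limma adjusted p = 3.04e-08), which leaves 0.558 of the level of day 10.

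The other receptors of FL-HER2 tumors were not called with time. Egfr averaged 76.3 ± 8.75 CPM at day 22 and 71.2 ± 8.09 CPM at day 10, a log2 change of -0.02 ± 0.08 (limma adjusted p = 0.861, 2 SE interval -0.18 to 0.14). Erbb3 averaged 56.9 ± 6.96 CPM at day 22 and 53.4 ± 13 CPM at day 10, a log2 change of -0.00 ± 0.10 (limma adjusted p = 0.986, 2 SE interval -0.20 to 0.19). Erbb4 averaged 1.48 ± 0.428 CPM at day 22 and 1.42 ± 0.472 CPM at day 10, a log2 change of -0.06 ± 0.27 (limma adjusted p = 0.873, 2 SE interval -0.60 to 0.48). The sign of these 3 values turned under 6, 11 and 10 alternatives, so no direction is read from them.

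Basal markers fell with time in both constructs. Of 11 tested members, 10 were lower and 1 higher at day 22 in p95HER2 tumors, and 8 were lower and 2 higher in FL-HER2 tumors. Of all genes tested, 18.6% were lower and 16.6% higher in p95HER2 tumors, and 30.6% lower and 20.7% higher in FL-HER2 tumors. With the basal score as a covariate, Erbb2 changed with time by -0.35 ± 0.20 in p95HER2 tumors (limma adjusted p = 0.498) and by -0.03 ± 0.25 in FL-HER2 tumors (limma adjusted p = 0.962). The basal scores of the days do not overlap within either construct, so here too the parts of time and score cannot be told apart. Fibroblast markers fell too, 11 of 14 in p95HER2 and 14 of 14 in FL-HER2 tumors. With their score as a covariate the Erbb2 change was -1.01 in p95HER2 (limma adjusted p = 2.99e-06) and -0.94 in FL-HER2 tumors (limma adjusted p = 0.0157). In p95HER2 tumors this score ran from 9.67 to 10.64 at day 22 and from 10.65 to 11.82 at day 10. In FL-HER2 tumors it ran from 9.60 to 10.83 at day 22 and from 11.61 to 12.84 at day 10. Without overlap of the days, the parts of time and the fibroblast score cannot be told apart either. Of the 15 luminal markers, 4 were higher and 5 lower at day 22 in each construct. These luminal counts stand beside 35.2% of all genes called in p95HER2 and 51.4% in FL-HER2 tumors, and are not read as a change of the list.

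The difference of the p95HER2 effect between the days was tested directly. Of all genes tested, 19.6% were called, 13.5% higher and 6.2% lower, and of the receptors Erbb3 was called: its p95HER2 minus FL-HER2 difference was 0.22 at day 22 and -0.17 at day 10, a change of 0.38 ± 0.13 (limma adjusted p = 0.0405). This call ended under 12 of 19 alternatives, including the 4 other scalings (limma adjusted p = 0.0679 to 0.116), and without any 1 of 16 libraries (limma adjusted p = 0.0506 to 0.0695). These were replicates 1, 4, 5, 9 and 10 of p95HER2 and 1 and 3 of FL-HER2 at day 22, and replicates 1, 5, 6, 9 and 10 of p95HER2 and 2, 7, 8 and 10 of FL-HER2 at day 10.

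For the other receptors this change was not called. It was -0.12 ± 0.15 for Erbb2 (limma adjusted p = 0.608, 2 SE interval -0.42 to 0.18). It was -0.24 ± 0.11 for Egfr (limma adjusted p = 0.129, and -0.29 with adjusted p = 0.0346 without replicate 1 of p95HER2 at day 10), and 0.64 ± 0.38 for Erbb4 (limma adjusted p = 0.225).

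Within groups, receptors could be compared with each other and with marker scores over the 39 libraries, after the group mean was taken from each value. In all, 42 relations were computed, with p-values from 100000 permutations within groups, adjusted over the 42. Erbb3 and Erbb4 moved together (Pearson r = 0.506, permutation p = 0.00271, adjusted 0.0285, Spearman rho = 0.527, permutation p = 0.00170, adjusted 0.0178), and r was 0.535 without the 2 libraries farthest from the median. Within the groups r was 0.321 in p95HER2 and 0.359 in FL-HER2 tumors at day 22 and 0.693 in p95HER2 and 0.466 in FL-HER2 tumors at day 10. For Erbb2 and Egfr r was 0.441 (permutation p = 0.00979, adjusted 0.0685) and rho 0.481 (permutation p = 0.00334, adjusted 0.0281), with r = 0.387 without the 2 farthest libraries. Within the groups r of this pair was 0.599 in p95HER2 and 0.594 in FL-HER2 tumors at day 22 and 0.417 in p95HER2 and 0.438 in FL-HER2 tumors at day 10.

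Erbb2 followed the basal score (r = 0.50, permutation p = 0.00139, adjusted 0.0195, rho = 0.467, permutation p = 0.00427, adjusted 0.0299, and r = 0.464 without the 2 farthest libraries). Within groups r was 0.757 in p95HER2 and 0.358 in FL-HER2 tumors at day 22 and 0.631 in p95HER2 and 0.354 in FL-HER2 tumors at day 10. No relation to the luminal score was detected over the 39 libraries (r = -0.0387, permutation p = 0.823, adjusted 0.886, rho = -0.0597, permutation p = 0.729, adjusted 0.876), and the groups differed in sign, with r of 0.0447 in p95HER2 and 0.543 in FL-HER2 tumors at day 22 and -0.0672 in p95HER2 and -0.673 in FL-HER2 tumors at day 10. Erbb2 ran against the leukocyte score (r = -0.460, permutation p = 0.00379, adjusted 0.0318, rho = -0.517, permutation p = 0.00144, adjusted 0.0178, and r = -0.404 without the 2 farthest libraries), but not in every group: r was -0.667 in p95HER2 and -0.846 in FL-HER2 tumors at day 22 and -0.408 in p95HER2 and 0.0733 in FL-HER2 tumors at day 10.

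Erbb3 ran against the skeletal muscle score (r = -0.559, permutation p = 0.00011, adjusted 0.00462, rho = -0.635, permutation p = 5e-05, adjusted 0.0021, and r = -0.509 without the 2 farthest libraries). The sign was negative in every group: r was -0.633 in p95HER2 and -0.311 in FL-HER2 tumors at day 22, and -0.669 in p95HER2 and -0.766 in FL-HER2 tumors at day 10. It also ran against the leukocyte score (r = -0.494, permutation p = 0.00057, adjusted 0.0120, rho = -0.587, permutation p = 0.00011, adjusted 0.00231, and r = -0.536 without the 2 farthest libraries), with r of -0.582 in p95HER2 and -0.743 in FL-HER2 tumors at day 22 and -0.409 in p95HER2 and -0.702 in FL-HER2 tumors at day 10. By rank, Erbb3 rose with the skin score (rho = 0.46, permutation p = 0.00832, adjusted 0.0437). Its r was 0.391 (permutation p = 0.0297, adjusted 0.113). At day 22 this r was 0.262 in p95HER2 and 0.204 in FL-HER2 tumors. At day 10 it was 0.159 in p95HER2 and 0.773 in FL-HER2 tumors. Egfr ran against the leukocyte score by rank (rho = -0.432, permutation p = 0.0071, adjusted 0.0426). Its r was -0.306 (permutation p = 0.0851, adjusted 0.238). No relation of Erbb3 to the Schwann cell score, whose cells are known to depend on Erbb3, was detected over the 39 libraries (r = 0.0924, permutation p = 0.593, adjusted 0.831, rho = 0.138, permutation p = 0.404, adjusted 0.706). The days differed here, with r of 0.600 in p95HER2 and 0.615 in FL-HER2 tumors at day 22 and -0.0823 in p95HER2 and -0.15 in FL-HER2 tumors at day 10, and this difference was not tested.

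**Figure D4:**
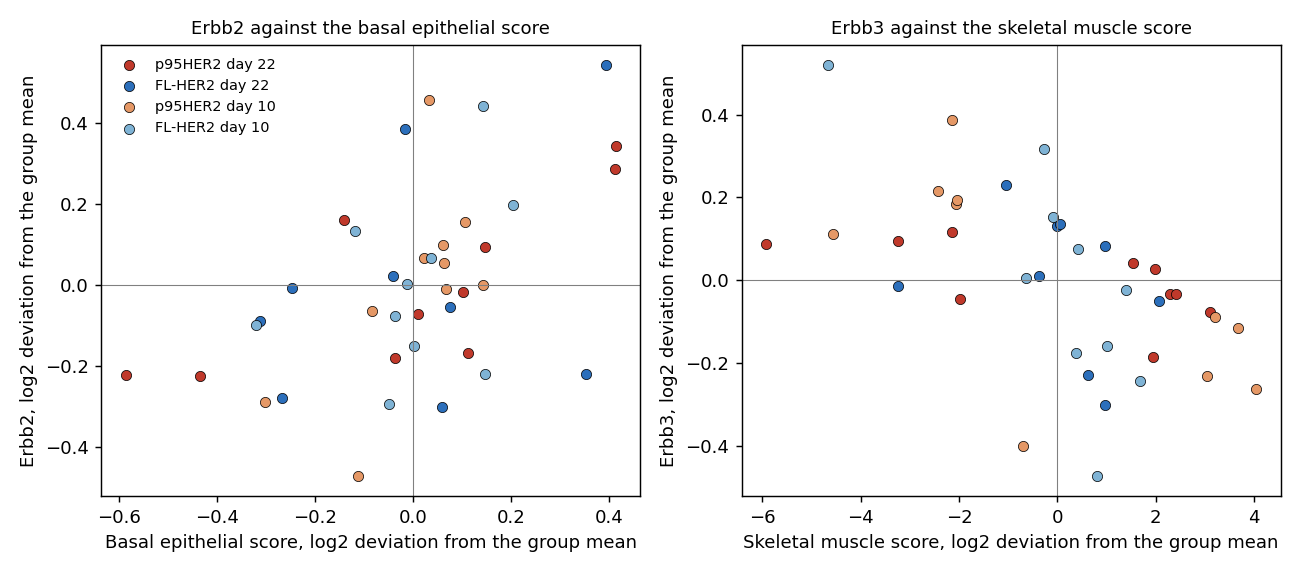
Deviation of each library from its group mean, in log2 units on both axes, 1 point per library, colored by group. On the left Erbb2 rises with the basal epithelial score (r = 0.50), and on the right Erbb3 falls with the skeletal muscle score (r = -0.559, 39 libraries each).

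The genes of the most similar pattern were sought among those with a mean of at least 5 CPM, by Pearson r of log2 values within groups over the 39 libraries, as a description. For Erbb2 they were the ubiquitin ligase gene Rnf144b (r = 0.727), the adhesion receptor gene Adgrl3 (r = 0.707) and Rsrc1 (r = 0.692). For Egfr the values were higher, with Mast4 (r = 0.895), the cohesin release factor Wapl (r = 0.880) and the corepressor subunit Tbl1x (r = 0.867). Erbb3 was closest to Sorbs2 (r = 0.851), the unconventional myosin Myo5c (r = 0.816) and the VIP receptor gene Vipr1 (r = 0.812), and Erbb4 to the anion transporter gene Slc26a7 (r = 0.746), Rab11fip2 (r = 0.720) and Dmxl1 (r = 0.705). The named genes were not far apart from others: the 100th gene still had r of 0.589 for Erbb2, 0.78 for Egfr, 0.64 for Erbb3 and 0.604 for Erbb4. These libraries share depth and tissue composition, which such values also carry.

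Of the 11 genes for HER ligands, 7 were tested. The EGFR ligands Areg (amphiregulin) and Hbegf (heparin-binding EGF) were higher in p95HER2 tumors at both times, while the neuregulin genes Nrg1 and Nrg2 were called with time and not between constructs. At day 22, 2 ligands were higher and 0 lower, and at day 10, 3 were higher and 1 lower, with list medians of 0.15 and 0.30 beside medians of -0.01 and -0.04 over all genes tested. Of all genes tested, 4.52% were called at day 22 and 41.3% at day 10, so the 4 of 7 ligands called at day 10 are read by their own values and not by their count. Areg averaged 10.4 ± 2.13 CPM in p95HER2 and 2.60 ± 2.43 CPM in FL-HER2 tumors at day 22, a log2 change of 2.37 ± 0.31 (limma adjusted p = 1.42e-06). At day 10 it averaged 34.3 ± 9.19 CPM in p95HER2 and 3.63 ± 1.75 CPM in FL-HER2 tumors, a log2 change of 3.27 ± 0.30 (limma adjusted p = 1.01e-10), and the ranges of 19.4 to 46.4 and 1.59 to 6.78 CPM do not overlap.

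Hbegf averaged 19.8 ± 3.96 CPM in p95HER2 and 7.76 ± 3.35 CPM in FL-HER2 tumors at day 22 (log2 change 1.42 ± 0.17), and 40.2 ± 8.75 CPM in p95HER2 and 10.9 ± 2.36 CPM in FL-HER2 tumors at day 10 (1.81 ± 0.17). Tgfa, which codes for another EGFR ligand, was higher by 0.42 ± 0.09 at day 10, with 117 ± 10.4 CPM in p95HER2 against 84.6 ± 15.1 CPM in FL-HER2 tumors. Egf was lower at day 10 (-2.0 ± 0.40), with 1.40 ± 1.10 CPM in p95HER2 and 4.75 ± 2.31 CPM in FL-HER2 tumors. All 4 ligands named here had a limma adjusted p of at most 0.000152 at day 10. Muscle markers were also higher in those FL-HER2 tumors, and their part in the Egf difference was not tested.

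With time, Nrg1 and Nrg2, which code for ligands of HER3 and HER4, moved in opposite directions. Nrg1 had a log2 change of -1.26 ± 0.19 (limma adjusted p = 8.47e-07) in p95HER2 tumors, with 1.81 ± 0.576 CPM at day 22 against 4.21 ± 1.33 CPM at day 10, and one of -1.72 ± 0.19 (limma adjusted p = 1.28e-09) in FL-HER2 tumors. Nrg2 rose by 1.18 ± 0.11 (limma adjusted p = 8.24e-11) in p95HER2 tumors, to 37.8 ± 6.37 CPM at day 22 against 15.9 ± 2.24 CPM at day 10, and by 1.10 ± 0.12 in FL-HER2 tumors. In all, 1 ligand rose and 3 fell with time in p95HER2 tumors, and 1 rose and 4 fell in FL-HER2 tumors, where the Areg call (-0.86, limma adjusted p = 0.0194) ended under quantile normalization, log2(CPM + 1) and voom.

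Of 19 adaptors and proximal effectors that carry the signal from the receptors, 10 were higher and 0 lower in p95HER2 tumors at day 10, with a list median of 0.14, where 15.2% of all genes tested were higher and 26.1% lower. At day 22, where 4.52% of all genes were called, 0 were called (1 without FL-HER2 replicate 3 or 4 or p95HER2 replicate 5). At day 10 the kinase gene Src rose by 0.43 ± 0.04, to 94.3 ± 5.28 CPM in p95HER2 against 67.2 ± 4.48 CPM in FL-HER2 tumors (limma adjusted p = 3.98e-10), and the adaptor gene Shc1 by 0.29 ± 0.04. Phospholipase Plcg1 rose by 0.47 ± 0.08 and the PI3K subunit Pik3cb by 0.36 ± 0.06. The p95HER2 effect was smaller at day 22 than at day 10 for 5 members and larger for 0 (6.2% and 13.5% of all genes), among them Plcg1 (-0.47), Pik3r3 (-0.37), Src (-0.30) and Shc1 (-0.22). With time, 2 rose and 11 fell in p95HER2 tumors (16.6% and 18.6% of all genes), among them Shc1 (-0.36) and Pik3r1 (-0.40), while 5 rose (3 without replicate 3, 4 or 5 of day 22 or replicate 1, 4 or 6 of day 10) and 5 fell in FL-HER2 tumors (20.7% and 30.6% of all genes), with Pik3r3 at 0.57 and the adaptor Grb2 at 0.18. The counts of falls depend on the scaling: under log2(CPM + 1) and under voom, 6 fell in p95HER2 and 1 in FL-HER2 tumors, and under quantile normalization 7 fell in p95HER2 tumors.

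Of 19 genes listed for negative regulation or turnover of HER receptors, not all of which are inhibitors, 3 were higher and 0 lower in p95HER2 tumors at day 22 (1 higher without p95HER2 replicate 1 or 10 or FL-HER2 replicate 4, 8 or 9), and 11 were higher and 1 lower at day 10. Of all genes tested, 2.98% were higher and 1.54% lower at day 22, and 15.2% higher and 26.1% lower at day 10. Those higher at day 22 were Lrig1 (0.47 ± 0.09), which lowers HER receptor protein, the feedback inhibitor Errfi1 (0.28 ± 0.08), which binds HER kinases, and the ubiquitin ligase gene Cblb (0.26 ± 0.08). At day 10 Errfi1 averaged 103 ± 9.87 CPM in p95HER2 and 70.1 ± 9.80 CPM in FL-HER2 tumors (0.51 ± 0.07), Cblb rose by 0.52 ± 0.07 and Socs5 by 0.43 ± 0.06. Lrig3 was the member lower at day 10, with a log2 change of -0.66 ± 0.10, 7.90 ± 1.72 CPM in p95HER2 and 11.9 ± 1.76 CPM in FL-HER2 tumors, and its p95HER2 effect changed by 0.89 ± 0.15 between days. With time, 0 rose and 8 fell in p95HER2 tumors, with Cblb at -0.75 and the phosphatase gene Ptpn12 at -0.55, and 2 rose (4 without p95HER2 replicate 1 of day 10) and 7 fell in FL-HER2 tumors, with Lrig1 at -1.0. Of all genes, 16.6% rose and 18.6% fell in p95HER2 tumors and 20.7% rose and 30.6% fell in FL-HER2 tumors. Under log2(CPM + 1) and under voom, 5 members fell in p95HER2 tumors, and 7 and 6 rose in FL-HER2 tumors (4 under quantile normalization).

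Of 7 tested genes for HER2 chaperones, partners and sheddases, 0 were called at day 22, where 4.52% of all genes were called. At day 10, 2 were higher and 0 lower, where 15.2% of all genes were higher and 26.1% lower. Those higher were the scaffold gene Erbin (0.25 ± 0.07) and the sheddase gene Adam10 (0.24 ± 0.05), named after their values were seen. The mucin gene Muc1, which codes for a partner of HER receptors, fell with time, with log2 changes of -1.02 ± 0.15 in p95HER2 and -1.16 ± 0.15 in FL-HER2 tumors. Of 12 transcription factors and cofactors known to act on receptor genes, 1 was higher at day 22 (0 without p95HER2 replicate 1, 7, 8, 9 or 10 or FL-HER2 replicate 1, 3, 4 or 7), 4 were higher and 2 lower at day 10, and with time 2 rose and 7 fell in p95HER2 tumors and 3 rose and 6 fell in FL-HER2 tumors. The day 22 count was 0 under quantile normalization, log2(CPM + 1) and voom, and under the 4 other scalings 6 to 8 were higher and 1 lower at day 10. Among all genes tested, 2.98% were higher and 1.54% lower at day 22, and 15.2% higher and 26.1% lower at day 10. With time, 35.2% were called in p95HER2 and 51.4% in FL-HER2 tumors. Tfap2c, an AP-2 factor that binds the promoter of the human HER2 gene, was higher in p95HER2 tumors at day 10 (0.29 ± 0.07) and rose with time, by 0.64 ± 0.07 in p95HER2 and by 0.69 ± 0.07 in FL-HER2 tumors, while Erbb2 fell. The forkhead factor gene Foxo1 fell with time in both, with log2 changes of -0.78 ± 0.07 in p95HER2 and -0.79 ± 0.07 in FL-HER2 tumors, as did the estrogen receptor gene Esr1, with -0.87 ± 0.10 in p95HER2 and -0.99 ± 0.10 in FL-HER2 tumors.

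Of 18 other tested receptor tyrosine kinases, 3 were higher and 1 lower at day 22 and 4 were higher and 6 lower at day 10 in p95HER2 tumors. The 10 of 18 called at day 10 stand beside 41.3% of all genes tested, and the 4 at day 22 beside 4.52%. Under median-of-ratios and under quantile scaling, 3 were lower at day 10, and under quantile scaling 0 were lower at day 22. Without FL-HER2 replicate 1 or 6 the day 22 count of higher genes was between 1 and 6. Without p95HER2 replicate 3, 6 or 7 or FL-HER2 replicate 1, 4, 5 or 6 the day 22 count of lower genes was between 0 and 2, and without p95HER2 replicate 1 or 9 or FL-HER2 replicate 2 the day 10 count of lower genes was 3. Epha2 was higher at both (0.41 ± 0.08 and 0.56 ± 0.07), Fgfr1 at day 22 (0.31 ± 0.08, not called under quantile normalization, limma adjusted p = 0.0630) and the IGF receptor gene Igf1r at day 10 (0.47 ± 0.09). The collagen receptor gene Ddr2 (-0.84 ± 0.12) and Axl (-0.50 ± 0.10), which fibroblasts and macrophages also express, were lower at day 10. With time Igf1r fell, with log2 changes of -1.53 ± 0.09 in p95HER2 and -1.31 ± 0.09 in FL-HER2 tumors, while Kit rose by 1.17 ± 0.10 in p95HER2 tumors, and in all 3 rose and 8 fell in p95HER2 and 3 rose and 9 fell in FL-HER2 tumors, where 35.2% and 51.4% of all genes were called.

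Erbb2 lies in a gene-dense stretch that is amplified together with it in human HER2-positive cancers. Of 16 genes listed around it, 15 were in the table and 11 were tested. None of the 11 was called higher at both days: 0 were higher (1 without p95HER2 replicate 3) and 1 lower in p95HER2 tumors at day 22, and 2 were higher and 4 lower at day 10. Without p95HER2 replicate 2, 3, 4, 8 or 9 or FL-HER2 replicate 3, 4, 6 or 9 of day 10, 1 was higher, and under log2(CPM + 1) and under voom 2 were lower. Since 41.3% of all genes tested were called at day 10 (15.2% higher and 26.1% lower), the 6 of 11 called are no result about these neighbours as a group. At day 22, 2.98% of all genes tested were higher and 1.54% lower, so the counts of that day are no such result either. The 2 higher ones, Grb7 at 8.68 kb and Cdk12 at 134 kb, rose by 0.19 ± 0.07 each, against 0.85 for Erbb2. Mien1, whose minus-strand transcripts overlap the end of Erbb2 by 9 bases, was lower at day 10 (-0.29 ± 0.09, limma adjusted p = 0.0130), with 37.2 ± 6.73 CPM in p95HER2 and 43.1 ± 5.77 CPM in FL-HER2 tumors, and was 0.14 and not called at day 22.

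The other neighbours lower at day 10 were Ormdl3 (-0.32 ± 0.07), Pgap3 (-0.14 ± 0.05) and Tcap (-3.55 ± 0.99), a sarcomere gene, beside the 20 of 20 muscle markers that were lower. Ikzf3, a lymphocyte transcription factor, was the gene lower at day 22 (-1.99 ± 0.59), with 0.890 ± 0.748 CPM in p95HER2 and 3.19 ± 1.73 CPM in FL-HER2 tumors. The call of Pgap3 ended under the 4 other scalings, that of Mien1 under log2(CPM + 1) and voom, and that of Ikzf3 under quantile normalization and without p95HER2 replicate 1, 4, 5, 7, 9 or 10 or FL-HER2 replicate 1, 2, 3, 4, 8 or 9 of day 22.

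**Figure D5:**
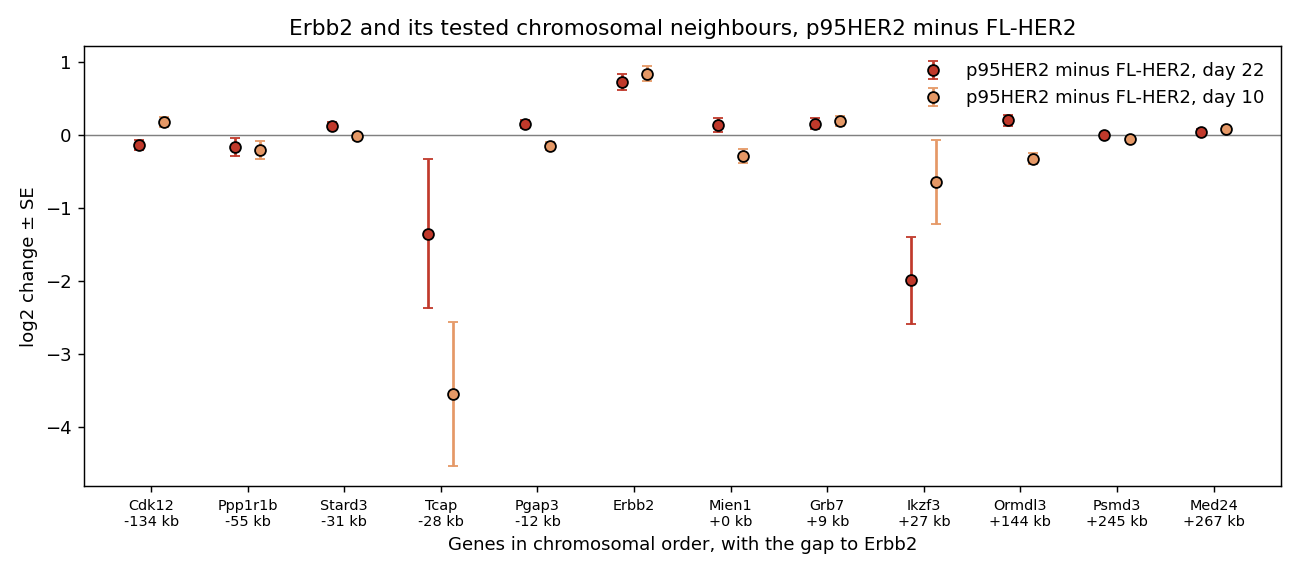
Log2 change between p95HER2 and FL-HER2 tumors on the y axis (points, with bars of ± 1 SE, by day) for Erbb2 and its 11 tested neighbours on the x axis in chromosomal order, each with its gap to Erbb2 in kilobases. Erbb2 lies at 0.73 and 0.85 and Grb7, the next gene on the same strand, at 0.19 at day 10, and Tcap and Ikzf3 reach -3.55 and -1.99.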

How the data were processed

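Tumor RNA was sequenced as 39 directional poly(A) libraries, per the labels' protocols. Reads were aligned to mm10 with STAR 2.4.2a, and the submitters' processing notes also name DESeq2. For the counter, annotation, strand setting and filters, nothing is stated in the sources used here. In the deposited table the values are log2 values, each the log2 of a read count divided by 1 factor per library, plus 1, although the table is called CPM, so the log2 test was used in place of one for CPM. Taking these steps back gave whole reads for 100% of values (tolerance 0.001), from which CPM were computed, and 1 CPM stands for at least 21.8 reads. No column was left unused and 0 pairs of libraries were identical.

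Groups follow the labels, except that 1 FL-HER2 library of day 10 (replicate 8) carries different tumor numbers in 2 of its labels. The 4 groups were fitted with limma 3.58.1 (R 4.3.3, empirical Bayes with trend) on the deposited log2 values of genes that reached 1 CPM in 9 or more libraries, and 5 contrasts were tested. Alternatives were other pseudocounts (0.1 and 5), filters, scalings, library weights, voom on the recovered reads, a rank-sum test, marker scores as covariates, muscle-limited libraries (0.1% to 1.3% of reads), removal of skin-high libraries (mean log2 of skin markers of at least 6, or at least 7 for strongly skin-marked ones) and leaving out each library. Those with the basal, skin, fibroblast and Schwann cell scores and the limit of 7 were chosen after seeing the data. The receptors, marker lists and pathway lists were chosen with earlier results of these data known. Named were the receptors and, per list and contrast with at least 3 calls, the 2 to 4 genes of the smallest adjusted p, and any tested neighbour of Erbb2, and for likeness the 3 genes of highest r. Positions, exon lengths and sequences come from GENCODE M21, with Python 3.11.15, numpy 2.4.6, pandas 2.3.3 and scipy 1.17.1. The fit was tested on simulated data for p95HER2 against FL-HER2 at day 10, with a single set spread for all genes. It recovered 35% of 100 changes of 0.5 log2 and 100% of 100 changes of 1 log2, and 3.57% of its calls were false. Changes of 0.5 log2 or less can therefore go uncalled.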

Additional observations from a re-analysis of the deposited data

Results flagged for a closer look

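Of the 16 combinations of receptor and group, 1 held a library far from the rest: Erbb4 in FL-HER2 tumors at day 22, where replicate 8 had 0.571 CPM, from 17 reads, and its gap to the next library was 0.523 of the group's range on the log2 scale, above the critical value of 0.493. Chance alone gives about 1 such case in 20 combinations checked, so 1 among 16 is near what chance gives. The same library had the lowest Erbb2 of all 39.

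The p95HER2 effect on Erbb3 differed between days by 0.38 ± 0.13 (limma adjusted p = 0.0405), with Erbb3 at 0.22 ± 0.10 at day 22 and -0.17 ± 0.09 at day 10, neither of which was called by itself.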

How the results depend on the processing

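No paired analysis was possible because the labels give no numbers that the groups share. The 4 Erbb2 differences between groups kept their direction and call under the other 20 of 21 alternatives and without any 1 library (0.69 to 0.80 and 0.79 to 0.90 between constructs at day 22 and day 10, -1.01 to -0.91 and -0.91 to -0.79 with time in p95HER2 and FL-HER2 tumors), while the basal score ended 3 of them (0.19 at day 22, -0.35 and -0.0318 with time). The change of the Erbb2 effect between days was -0.17 to -0.05 without 1 library and turned positive in muscle-limited libraries (0.0298), without skin-high libraries (0.0942) and without strongly skin-marked ones (0.0560).

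The Egfr day 22 difference turned with library weights (0.0342), rank-sum (0.0176), muscle-limited libraries (0.0132), the luminal score (0.0126) and the Schwann cell score (0.00277), and was -0.0427 to 0.0232 without 1 library. The Egfr day 10 call ended with only the groups compared (0.23), the muscle score (0.19), muscle-limited libraries (0.25), without skin-high libraries (0.24), sample-number digits (0.13), the basal score (0.13), the fibroblast score (0.00366) and the Schwann cell score (0.26), and was 0.17 to 0.28 without 1 library. With time in p95HER2 tumors the Egfr call ended under log2(CPM + 1) (-0.19), voom (-0.19), in muscle-limited libraries (-0.25), without skin-high libraries (-0.30) and with the basal score (-0.0685), and was -0.31 to -0.19 without 1 library. In FL-HER2 tumors Egfr turned under median-of-ratios (0.0210), quantile (0.0388), log2(CPM + 1) (0.10), voom (0.10), without strongly skin-marked libraries (0.00767) and with the basal score (0.23), and was -0.0513 to 0.0147 without 1 library. The change of the Egfr effect was -0.29 to -0.17 without 1 library.

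Erbb3 was called at day 22 with only the groups compared (0.22; 0.18 to 0.25 without 1 library) and at day 10 with the muscle score (-0.37) and in muscle-limited libraries (-0.50; -0.22 to -0.11 without 1 library). With time in p95HER2 tumors its call ended with the basal (0.57) and fibroblast (0.31) scores (0.34 to 0.42 without 1 library). In FL-HER2 tumors Erbb3 turned under median-of-ratios (0.0377), quantile (0.0548), log2(CPM + 1) (0.11), voom (0.11), rank-sum (0.0172), without skin-high (0.10) or strongly skin-marked libraries (0.10) and with the luminal (0.0151), digit (0.0741), basal (0.26) and skin (0.0607) terms, and was -0.0547 to 0.0553 without 1 library. The call of the Erbb3 change between days ended with no filter (0.38), median-of-ratios (0.34), quantile (0.35), log2(CPM + 1) (0.32), voom (0.33), without skin-high (0.37) or strongly skin-marked libraries (0.36) and with the luminal (0.38), digit (0.31), basal (0.32), fibroblast (0.45) and Schwann cell (0.36) terms, and was 0.33 to 0.44 without 1 library.

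Erbb4 at day 22 turned under quantile (0.0370; -0.27 to -0.04 without 1 library). Its day 10 call ended under quantile (-0.32), log2(CPM + 1) (-0.33), only the groups compared (-0.76), library weights (-0.53), rank-sum (-0.84), muscle-limited libraries (-1.08), without skin-high (-0.71) or strongly skin-marked libraries (-0.80) and with the digit (-0.85), basal (-0.93) and fibroblast (-0.67) terms, and was -0.89 to -0.59 without 1 library. With time in p95HER2 tumors Erbb4 was called with the skin score (0.66; 0.42 to 0.72 without 1 library). In FL-HER2 tumors it turned under quantile (0.32), log2(CPM + 1) (0.0378), voom (0.0443), rank-sum (0.13), muscle-limited (0.0663), without skin-high (0.10) or strongly skin-marked libraries (0.0106) and with the basal (0.35), skin (0.0409) and fibroblast (0.0875) terms, and was -0.14 to 0.0946 without 1 library. The change of the Erbb4 effect was 0.48 to 0.78 without 1 library. The causes were not tested.

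Of 16 shares of the receptor sum, 0 moved by more than the spread between libraries with the length of the longest transcript. Normalized counts in place of CPM could not move a share, because the factor of a library cancels in it. Of 70 counts of list members, 56 moved over 1.5 times under at least 1 alternative, as did 10 of 10 counts over all genes, such as 407 higher at day 22 (8 to 808) and 210 lower (2 to 610). Quantile normalization moved the median of all genes by 0.105 between constructs at day 10 and by 0.112 with time in FL-HER2 tumors, log2(CPM + 1) the same time median by 0.113 and voom by 0.115. The rank-sum test and the fit of only the groups compared give no change between days, and Erbb4 does not reach the filter of 5 CPM. Depth limits Erbb4 most, with 9 to 87 reads a library.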
